A study of Mus musculus with 69 samples.

Results

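Marker genes of pituitary stem cells and pituicytes were followed in the pituitary, hypothalamus and ovary of female mice that carry a mutated Zeb1 3′ UTR. There were 8 of them, 5 that mark stem and folliculostellate cells (Sox2, Sox9, S100b, Aldh1a1 and Aldh1a2) and 3 that mark pituicytes (Rax, Lhx2 and Nkx2-1). They were picked by symbol as markers of these cells, and they are 8 of the 49022 genes listed for every tissue and cohort. RNA-seq of 69 libraries in 18 groups compared Zeb1_WT, Zeb1_200H and Zeb1_200M animals, the first abbreviated WT. In Zeb1_200H mice 1 Zeb1 allele carries point mutations in the 9 sites for miR-200a and miR-200b, and in Zeb1_200M mice both alleles carry them, in every cell of the body. The knock-in lines came from 2 embryonic stem cell clones and were crossed to C57BL/6J. The young cohort was virgin females of 8 to 12 weeks, and the older cohort was females of 28 to 36 weeks that had been paired with a male in a breeding trial. The outcome of that pairing is not given for each library, so litters borne cannot be told apart from genotype in the older cohort. Tissue from both was taken at proestrus, the phase of the cycle that precedes ovulation. Groups held 4 libraries, except for the young WT pituitary, the older Zeb1_200M pituitary and the older Zeb1_200M hypothalamus with 3 each. Cohort cannot be told apart from age, breeding history, library chemistry (rRNA-depleted and stranded in the young, poly(A)-selected and unstranded in the older) or read counting, so levels were compared between genotypes only within a tissue and cohort.

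The anterior and intermediate lobes of the pituitary keep a small pool of stem cells along the cleft that expresses SOX2 and SOX9, transcription factors of the HMG-box family. Folliculostellate cells, non-hormonal cells that form a network among the hormone cells, overlap with this pool and make S100B, a small calcium-binding protein. The enzymes encoded by Aldh1a1 and Aldh1a2 make retinoic acid from retinaldehyde. Pituicytes are the glia of the posterior lobe, where they surround the nerve endings that release vasopressin and oxytocin. They share the homeobox factors RAX, LHX2 and NKX2-1 with the tanycytes and the floor of the hypothalamus, from which the posterior lobe develops. None of these genes is restricted to the pituitary: SOX2, SOX9 and S100B are also found in astrocytes, NKX2-1 in ventral hypothalamic cells, and retinaldehyde dehydrogenases in the ovary.

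ZEB1 is a zinc finger repressor that binds E-box motifs, and the miR-200 family represses its mRNA. The family falls into seed groups that differ by 1 base, and the mature sequences are shown because their seeds (bases 2 to 8, in capitals, 5′ to 3′) define the sites that were mutated. Sequences and positions are from RefSeq on GRCm38.p6, and all 5 were on the minus strand.

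mmu-miR-200a-3p (chr4:156054911-156054932): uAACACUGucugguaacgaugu

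mmu-miR-141-3p (chr6:124717917-124717938): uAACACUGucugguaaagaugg

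mmu-miR-200b-3p (chr4:156055685-156055706): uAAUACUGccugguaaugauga

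mmu-miR-200c-3p (chr6:124718324-124718346): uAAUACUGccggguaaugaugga

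mmu-miR-429-3p (chr4:156053916-156053937): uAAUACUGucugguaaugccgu

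A search of the annotated 3′ UTRs (GENCODE M21 on GRCm38, the transcript with the longest 3′ UTR of each gene) for letters complementary to bases 2 to 8 of these seeds found 1 match in Sox2, 1 in Aldh1a1 and none in the other 6 genes. Over 21037 genes with a 3′ UTR, 25.7% held at least 1 such match. The Sox2 match, to the miR-200b, miR-200c and miR-429 seed, lies at base 455 of a 3′ UTR of 1086 bases (chr3:34651830-34651836, plus strand). The Aldh1a1 match, to the miR-200a and miR-141 seed and extended by an A opposite base 1, lies at base 122 of 499 (chr19:20643088-20643095, plus strand). Both windows are printed 5′ to 3′ with the match in capitals, to show which markers carry seed matches of their own.

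Sox2: caagcaacttttgtaCAGTATTtatcgag

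Aldh1a1: gcaaaaggaattcatCAGTGTTActgtcac

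These matches are letters in the reference and not measured sites.

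The RefSeq promoter windows (250 bases before to 50 after the start, GRCm38.p6) of 5 of the 8 genes, 7 windows in all, were searched on both strands for the E-boxes CAGGTA and CAGGTG, sequences that ZEB1 is known to bind. Of all 32851 promoter windows, 29.5% held at least 1 of them. Aldh1a1 and Aldh1a2 held matches, all to CAGGTG, given on the strand of the gene with the motif, or its reverse complement CACCTG, in capitals.

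Aldh1a1, first promoter, position -163 from the start (chr19:20492420-20492425): gacaggacattcCAGGTGgaagactttctc

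Aldh1a1, second promoter, position 16 (chr19:20601984-20601989): tgctgagcctgtCACCTGtgttccaggagc

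Aldh1a2, position -11 (chr9:71215778-71215783): ccccccgcttgaCACCTGcctatatacagc

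No match to either was found in the windows of Sox2, S100b and Lhx2, which says only that these letters are not in them.

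In GENCODE M21 on GRCm38, Sox2 (ENSMUSG00000074637, chr3:34650405-34652461, plus strand) lies within an intron of the long non-coding gene Sox2ot on its own strand. Sox9 (ENSMUSG00000000567, chr11:112782224-112787760, plus strand) overlaps no other gene. S100b (ENSMUSG00000033208, chr10:76253853-76261159, plus strand) and Aldh1a1 (ENSMUSG00000053279, chr19:20492715-20643465, plus strand) overlap genes on the opposite strand without shared exonic bases. The same is true of Aldh1a2 (ENSMUSG00000013584, chr9:71215789-71296243, plus strand), Lhx2 (ENSMUSG00000000247, chr2:38339281-38369733, plus strand) and Nkx2-1 (ENSMUSG00000001496, chr12:56531958-56536908, minus strand). Rax (ENSMUSG00000024518) shares 1604 exonic bases with the antisense gene Raxos1, so Rax and antisense reads cannot be told apart in the older cohort, which was counted without strand.

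Total counts per library were 7560888 to 13342430 in the young pituitary, 4527753 to 12957678 in the older pituitary, 3321845 to 5143128 in the young hypothalamus, 10189605 to 13917738 in the older hypothalamus, 6337205 to 12896366 in the young ovary and 7985206 to 14655095 in the older ovary. Levels are given in CPM, the count of a gene scaled to a fixed library total, with totals adjusted by edgeR's TMM factors within a tissue and cohort. Zeb1, the mutated gene, was raised in the pituitary in both genotypes and cohorts: against WT the log2 fold change was 0.52 in young Zeb1_200M, 0.44 in young Zeb1_200H, 0.55 in older Zeb1_200M and 0.33 in older Zeb1_200H (edgeR's quasi-likelihood test, Benjamini-Hochberg adjusted p of 2.39e-05, 0.000895, 0.000833 and 0.0139). It was not called in the hypothalamus or the ovary, where its log2 fold change in Zeb1_200M ran from -0.26 to -0.06. The tissue labels matched their defining genes: the summed level of 7 anterior hormone genes was at least 65540 CPM in every pituitary library and at most 161 CPM elsewhere, and that of 5 granulosa cell genes was at least 577 CPM in every ovary library and at most 66.8 CPM elsewhere. Some libraries stood apart in the marker genes and are named here before the results. Replicate 1 of the older Zeb1_200H pituitary had 0 counts of Lhx2 and Nkx2-1. In the older ovary, Zeb1_200H replicate 4 and Zeb1_200M replicate 3 had far more Sox9 and S100b than the others, and WT replicate 1 more than its group. In the young hypothalamus, Zeb1_200H replicate 3 and Zeb1_200M replicate 3 had the lowest Aldh1a2.

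In the WT tissues, Sox2, Lhx2 and Nkx2-1 were highest in the hypothalamus, intermediate in the pituitary and lowest in the ovary in both cohorts, with no overlap between neighbouring tissues. These cross-tissue levels are CPM of total counts (mean ± SD over the WT libraries). The older ovary was counted with another tool and annotation than the older pituitary and hypothalamus, so it differs from them in counting as well as tissue. In the young cohort Sox2 stood at 53.1 ± 5.76 in the hypothalamus, 17.8 ± 2.58 in the pituitary and 0.164 ± 0.17 in the ovary. Nkx2-1 stood at 39.6 ± 4.24, 4.25 ± 0.624 and 0.578 ± 0.297 in the same order, and Lhx2 at 6.93 ± 1.23, 2.36 ± 0.036 and 1.1 ± 0.329. Sox9 kept the same order in the young cohort, at 77.8 ± 4.81, 24.5 ± 3.71 and 17.9 ± 2.34, whereas in the older cohort its pituitary (7.33 ± 0.953) and ovary (7.14 ± 3.05) levels overlapped. S100b, despite its use as a folliculostellate marker, was lowest in the pituitary, at 0.335 ± 0.0759 against 1.12 ± 0.451 in the ovary and 36.4 ± 2.02 in the hypothalamus, where astrocytes are plentiful. The retinaldehyde dehydrogenases were highest in the ovary: Aldh1a1 stood at 1166 ± 127 there, 41.1 ± 4.67 in the hypothalamus and 9.29 ± 2.27 in the pituitary. Aldh1a2 stood at 97.5 ± 12.1 in the ovary, 50.5 ± 7.75 in the pituitary and 24.9 ± 1.94 in the hypothalamus. Rax was low throughout and its tissues overlapped in the young cohort. In the older cohort the pituitary (1.75 ± 0.899) and the hypothalamus (2.1 ± 0.903) overlapped, and all 12 ovary libraries of the 3 genotypes had 0 counts of Rax and of Nkx2-1, which allows at most 0.205 to 0.376 CPM per library (3 counts, counting error only).

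**Figure D1:**
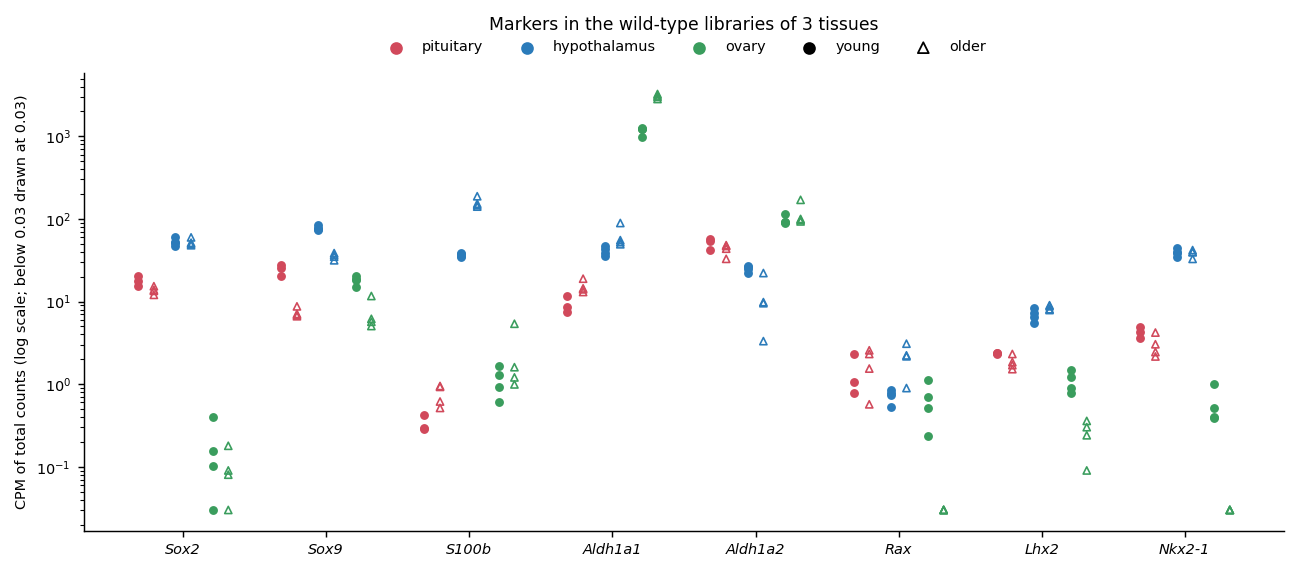
Level of the 8 marker genes in each WT library, in CPM of total counts on a log axis, with colour for tissue, filled circles for the young and open triangles for the older cohort, and values below 0.03 are drawn at 0.03. Sox2, Lhx2 and Nkx2-1 run from hypothalamus down to ovary, while Aldh1a1 and Aldh1a2 are highest in the ovary.

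Per kilobase of annotated exon, the scale on which genes can be compared, Aldh1a2 was the most abundant of the 8 in the WT pituitary, at 22.3 ± 3.42 CPM per kb in young and 18.9 ± 3.07 in older animals. Sox2 followed at 8.66 ± 1.26 and 6.64 ± 0.656. Sox9 and Aldh1a1 came next and changed places between the cohorts, with Sox9 at 5.92 ± 0.897 and 1.77 ± 0.231 and Aldh1a1 at 1.88 ± 0.46 and 3.06 ± 0.525. The pituicyte markers were lower, with Nkx2-1 at 1.5 ± 0.22 and 1.04 ± 0.319, Lhx2 at 0.538 ± 0.0082 and 0.42 ± 0.0778 and Rax at 0.238 ± 0.141 and 0.299 ± 0.154. S100b, at 0.226 ± 0.0512 and 0.506 ± 0.148, was in the same low range, and the levels of Rax, S100b and, in the older cohort, Lhx2 did not differ beyond their spread.

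In the young pituitary, the pituicyte marker Nkx2-1 rose in Zeb1_200M. None of the other markers tested, the pituicyte markers Rax and Lhx2 among them, was called in either genotype, and S100b was not tested. A gene was called where edgeR's quasi-likelihood test gave a Benjamini-Hochberg adjusted p under 0.05 over all genes tested. Where genotypes are said not to overlap, here and below, the share of all genes without overlap was not computed. Of the 7 markers that passed the filter on low counts, 1 was called in Zeb1_200M against WT and it was raised, where 21.5% of all genes tested were called and 11.5% raised, so the share of markers was close to that of all genes. In Zeb1_200H against WT none of the 7 was called (0 at an unadjusted p under 0.05 and 0 by DESeq2), against 12.3% of all genes. Between Zeb1_200M and Zeb1_200H none of the 7 was called (0 unadjusted and 0 by DESeq2), against 0.0383% of all genes.

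Nkx2-1, which specifies the ventral hypothalamus and the posterior lobe, stood at 5.21, 4.4 and 3.91 CPM in the WT libraries, at 5.91, 6.87, 6.88 and 3.31 CPM in Zeb1_200H and at 7.06, 7.08, 6.6 and 8.27 CPM in Zeb1_200M. All 4 libraries of Zeb1_200M lay above all 3 of WT, and Zeb1_200H spanned both, with its replicate 4 below WT. On the log2 scale the difference from WT was 0.67 (SE 0.18) in Zeb1_200M (adjusted p = 0.0177, edgeR's quasi-likelihood test) and 0.34 (SE 0.25) in Zeb1_200H (adjusted p = 0.442). The last of these WT libraries is numbered 3 in its table, while the WT samples are titled 1, 2 and 4, so it was placed in its group but matched to no numbered sample. Without it the Zeb1_200M value was 0.58 with an adjusted p of 0.0815, which ends the call. In whole tissue, a larger share of a cell type and more RNA per cell cannot be told apart. The labels do not tie replicates to litters, so p-values here measure the spread between labelled libraries.

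Lhx2, a LIM homeobox factor required for the posterior lobe, was not called. It stood at 2.56, 2.42 and 2.54 CPM in WT, 4.0, 2.75, 2.83 and 3.52 CPM in Zeb1_200H and 3.1, 3.58, 4.05 and 5.43 CPM in Zeb1_200M. Neither mutant group overlapped WT. On the log2 scale the difference from WT was 0.66 (SE 0.26) in Zeb1_200M (edgeR's quasi-likelihood test, adjusted p = 0.0878) and 0.38 (SE 0.26) in Zeb1_200H (adjusted p = 0.402). Rax, the homeobox factor of tanycytes and pituicytes, stood at 1.12, 2.42 and 0.846 CPM in WT, 1.82, 1.54, 2.63 and 3.0 CPM in Zeb1_200H and 2.1, 2.25, 2.25 and 1.23 CPM in Zeb1_200M, and its groups overlapped. Its log2 fold change was 0.44 (SE 0.38) in Zeb1_200M and 0.60 (SE 0.41) in Zeb1_200H (adjusted p = 0.465 and 0.398).

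The stem cell factors Sox2 and Sox9 were not called in the young pituitary. Sox2 stood at 18.7, 21.3 and 16.5 CPM in WT and 19.9, 20.3, 20.4 and 22.1 CPM in Zeb1_200M, a log2 fold change of 0.12 (SE 0.11). For Sox9 the values were 26.8, 28.9 and 22 CPM in WT and 25.1, 29.3, 24.1 and 29.7 CPM in Zeb1_200M, a log2 fold change of 0.05 (SE 0.12). The Zeb1_200H values of both genes overlapped WT as well (16.8 to 24.3 CPM for Sox2 and 26 to 33.6 CPM for Sox9). Among the enzymes of retinoic acid synthesis, Aldh1a1 ranged over 7.93 to 12.6 CPM in WT and 8.39 to 11 CPM in Zeb1_200M (-0.09, SE 0.17 on the log2 scale). Aldh1a2 ranged over 44.8 to 60.2 CPM in WT and 44.5 to 55.2 CPM in Zeb1_200M (-0.11, SE 0.11). These 4 genes had adjusted p-values of 0.499, 0.811, 0.779 and 0.523 in the edgeR fit. S100b was below the count filter, at 0.307, 0.44 and 0.317 CPM in WT, 0.261, 0.515, 0.911 and 1.03 CPM in Zeb1_200H and 0.621, 0.916, 0.75 and 0.123 CPM in Zeb1_200M, and a difference was not detectable at this depth.

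**Figure D2:**
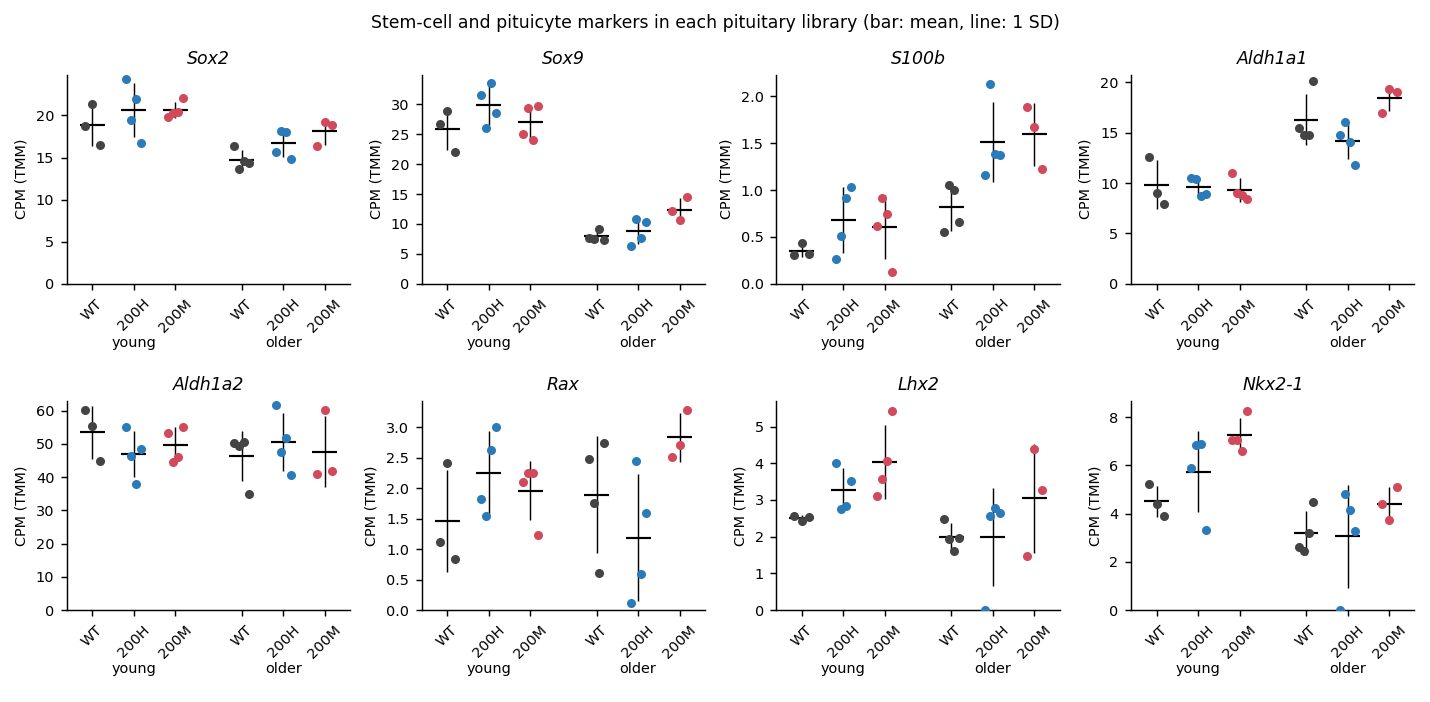
CPM with TMM factors of each marker gene in each pituitary library (points), with the group mean (bar) and 1 SD (line), for WT, Zeb1_200H and Zeb1_200M of the young and older cohorts. All 4 young Zeb1_200M libraries lie above WT for Nkx2-1, and all 3 older Zeb1_200M libraries lie above WT for Sox9, while 1 older Zeb1_200H library has 0 counts of Lhx2 and Nkx2-1.

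In the older pituitary, Sox9 rose in Zeb1_200M and the fitted changes of all 7 markers tested were positive. Of the 7, 1 was called in Zeb1_200M against WT and it was raised, where 21.4% of all genes tested were called and 11.7% raised, again close to the share of the markers. In Zeb1_200H against WT none of 8 tested was called (1 at an unadjusted p under 0.05, S100b, and 0 by DESeq2), against 12.2% of all genes. Between Zeb1_200M and Zeb1_200H none of 8 was called (2 unadjusted, Sox9 and Aldh1a1, and 0 by DESeq2), against 0.121% of all genes.

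Sox9 stood at 7.59, 7.53, 9.21 and 7.33 CPM in WT, 6.4, 10.9, 7.73 and 10.3 CPM in Zeb1_200H and 12.1, 10.6 and 14.5 CPM in Zeb1_200M. The 3 libraries of Zeb1_200M lay above the 4 of WT, and Zeb1_200H spanned WT and the lower edge of Zeb1_200M. On the log2 scale the difference from WT was 0.67 (SE 0.17) in Zeb1_200M (adjusted p = 0.0168, edgeR's quasi-likelihood test) and 0.19 (SE 0.19) in Zeb1_200H (adjusted p = 0.577). The Zeb1_200M call was lost without Zeb1_200M replicate 1 (0.67, adjusted p = 0.0514) and without Zeb1_200M replicate 3 (0.53, adjusted p = 0.0925). Sox2 stood at 16.4, 13.7, 14.6 and 14.3 CPM in WT and 16.3, 19.2 and 18.8 CPM in Zeb1_200M. Its Zeb1_200M libraries overlapped WT at the lower end, and its log2 fold change of 0.32 (SE 0.13) had an adjusted p of 0.109.

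The raw counts of S100b, the folliculostellate calcium-binding protein, were small and overlapped, at 4 to 12 in WT, 7 to 20 in Zeb1_200H and 6 to 13 in Zeb1_200M. Scaled to CPM, S100b did not overlap between WT and either mutant. It stood at 0.552, 1.05, 1.0 and 0.656 CPM in WT, 1.16, 2.13, 1.39 and 1.38 CPM in Zeb1_200H and 1.88, 1.68 and 1.23 CPM in Zeb1_200M. The pair of Zeb1_200M and WT was below the count filter, and in Zeb1_200H against WT the difference on the log2 scale was 0.90 (SE 0.33) (adjusted p = 0.102, edgeR's quasi-likelihood test). Aldh1a1 stood at 15.4, 14.8, 14.8 and 20.1 CPM in WT, 14.8, 16.1, 14.1 and 11.8 CPM in Zeb1_200H and 16.9, 19.4 and 19 CPM in Zeb1_200M. All 3 libraries of Zeb1_200M lay above the 4 of Zeb1_200H, with a log2 fold change between them of 0.38 (SE 0.14) and an adjusted p of 0.323, while WT spanned both. Aldh1a2 ranged over 35 to 50.6 CPM in WT, 40.7 to 61.6 CPM in Zeb1_200H and 41 to 60.1 CPM in Zeb1_200M, with a log2 fold change of 0.07 (SE 0.16) in Zeb1_200M.

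The pituicyte markers of the older pituitary had positive fitted changes in Zeb1_200M, as in the young cohort, and none was called. Nkx2-1 stood at 2.62, 2.45, 3.2 and 4.49 CPM in WT, 0, 4.8, 4.16 and 3.29 CPM in Zeb1_200H and 4.39, 3.74 and 5.11 CPM in Zeb1_200M. Lhx2 stood at 2.48, 1.93, 1.6 and 1.97 CPM in WT, 0, 2.56, 2.77 and 2.65 CPM in Zeb1_200H and 1.47, 4.39 and 3.27 CPM in Zeb1_200M. For Rax the values were 2.48, 1.75, 0.60 and 2.73 CPM in WT, 0.116, 2.45, 0.594 and 1.59 CPM in Zeb1_200H and 2.51, 2.71 and 3.27 CPM in Zeb1_200M. The Zeb1_200M and WT libraries overlapped for each of the 3 genes, and the 3 libraries of Zeb1_200M lay above the 4 of Zeb1_200H for Rax. In Zeb1_200M against WT the log2 fold change was 0.46 (SE 0.27) for Nkx2-1, 0.67 (SE 0.33) for Lhx2 and 0.52 (SE 0.37) for Rax (edgeR's quasi-likelihood test, adjusted p = 0.252, 0.178 and 0.348).

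Replicate 1 of the older Zeb1_200H pituitary had 0 counts of Lhx2 and of Nkx2-1, which allows at most 0.348 CPM of each, and 0.116 CPM of Rax. Among 13765 genes with a mean of at least 2 CPM in the other 3 libraries of its group, 12 stood at under 0.1 of that mean in replicate 1 and 0 at over 10 times it. Besides Lhx2 and Nkx2-1, they included Scn7a, a sodium channel gene on the list of posterior lobe glia (1.86 against a mean of 47.5 CPM), the tanycyte genes Fndc3c1 (0 counts), Gpr50 and Col23a1 (2.09 against 23.7 CPM), and Oxt, the oxytocin transcript (0.233 against 6.86 CPM). The summed lists were not low, but sums rest most on abundant genes, such as Six6 and Dio2 of the glia list (older WT means of 131.5 and 95.2 CPM). They do not show that each listed gene was kept, as the low values of Scn7a, Fndc3c1, Gpr50 and Col23a1 show. The other pituicyte and posterior lobe glia genes summed to at least 426.8 CPM in every older Zeb1_200H library, against 417.4 to 472 CPM in WT. The tanycyte genes summed to at least 331.4 CPM in every older Zeb1_200H library, against 269.2 to 391.9 CPM in WT. The melanotrope genes of the intermediate lobe were also low in replicate 1, with Pax7 at 15.6 CPM, Pcsk2 at 113 CPM and Oacyl at 62.5 CPM against 42 to 81.8, 199 to 506 and 165 to 507 CPM in the other older pituitary libraries. Of the stem cell markers, Sox2 stood at 15.7 and Aldh1a2 at 61.6 CPM, within or above the range of the others (13.7 to 19.2 and 35 to 60.1 CPM), whereas Sox9, at 6.4 CPM, was the lowest of the 11 libraries.

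Results that rest on this library were computed with and without it. In Zeb1_200H against WT the log2 fold change of Nkx2-1 was -0.08 with it and 0.36 without it, that of Lhx2 -0.03 and 0.41, and that of Rax -0.63 and -0.23. None was called either way (adjusted p without it = 0.445, 0.352 and 0.796 in the edgeR fit). In Zeb1_200M against Zeb1_200H, Nkx2-1 went from 0.53 to 0.09, Lhx2 from 0.70 to 0.26, Rax from 1.14 to 0.73 and Sox9 from 0.46 to 0.32, and again none was called.

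**Figure D3:**
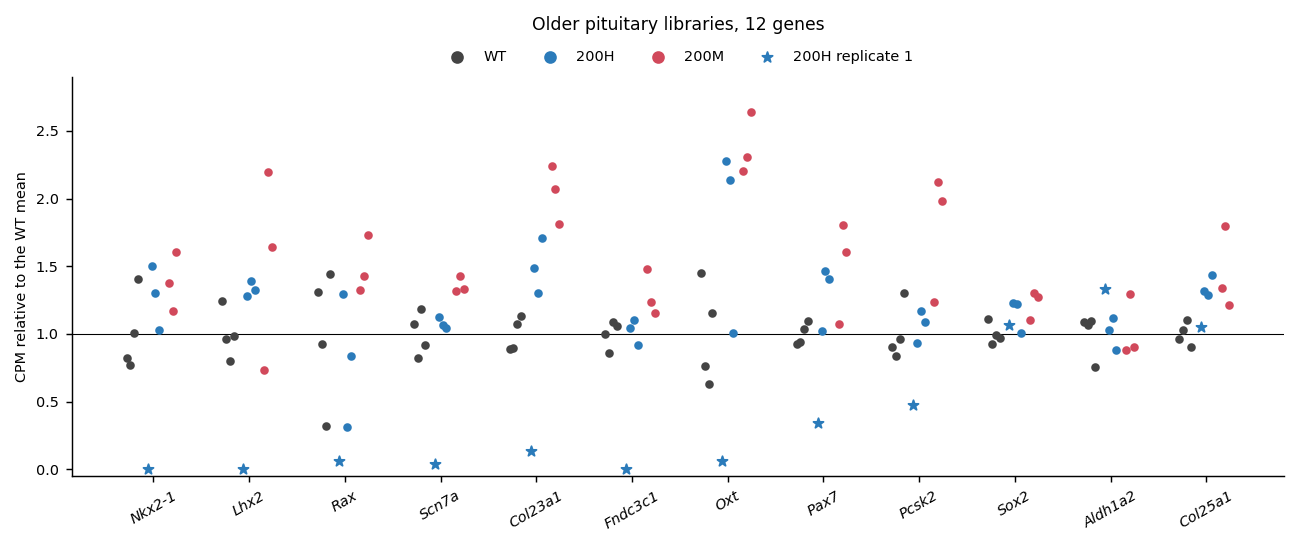
CPM of 12 genes in each older pituitary library relative to the WT mean of that gene (line at 1), coloured by genotype, with Zeb1_200H replicate 1 as a star. The star lies at or near 0 for Nkx2-1, Lhx2, Rax, Scn7a, Col23a1, Fndc3c1 and Oxt, below the other libraries for Pax7 and Pcsk2, and among or above them for Sox2, Aldh1a2 and Col25a1. Scn7a and Col25a1 are both on the list of posterior lobe glia.

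Over the 22 pituitary libraries of both cohorts, after subtracting the mean of each group, the 3 genes whose log2 CPM ran most alike to each marker were found among 14301 genes. The libraries share tissue and depth differences, and the correlations are descriptions. Nkx2-1 was most like Lrrtm3 (Pearson r = 0.944), Scn7a (0.933) and Fndc3c1 (0.926). Without the older Zeb1_200H replicate 1 (21 libraries) the leading genes were Lrrtm3 (0.818), Scn7a (0.777) and Col23a1 (0.753). Lhx2 was most like Ptprt (0.912), Gria3 (0.904) and Jam2 (0.883), and without that library like Sfrp1 (0.801), Ptprt (0.785) and Jam2 (0.768). Rax was most like Fam126a (0.851), A330023F24Rik (0.831) and Gm36070 (0.83), and without that library its leading gene was A330023F24Rik (0.876). For the stem and folliculostellate markers the leading genes were Kbtbd3 (0.819), Brd7 (0.809) and Nr0b1 (0.759) for Sox2, Cacna1d (0.814), Dgkb (0.799) and Arid3b (0.782) for Sox9, and Mknk2 (0.796), Msh5 (0.769) and Thbs3 (0.744) for S100b. Aldh1a1 was most like Itih2 (0.785), Pcdhb17 (0.777) and Acadm (0.769), and Aldh1a2 like Ndufv2 (0.764), Mrpl17 (0.737) and Ybx3 (0.732). Without that library the leading genes were Brd7 for Sox2 (0.847) and Cep295 for Sox9 (0.809). No marker was among the 3 genes most like another marker.

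Other genes of the same cells moved in both directions in the Zeb1_200M pituitary, where 21.5% of all genes tested were called in the young and 21.4% in the older animals (11.5% and 11.7% raised). Of the other pituicyte and posterior lobe glia genes, 4 of 9 tested genes were raised and 1 lowered in the young cohort and 4 of 9 tested genes were raised and 1 lowered in the older cohort. The median log2 fold change of the list was 0.36 for young and 0.24 for older animals, beside 0.00175 and -0.0127 over all genes tested. Dio2, the deiodinase that activates thyroid hormone, rose from 188 ± 14.2 (SD, n = 3) to 289 ± 15.6 CPM (SD, n = 4) among young animals, a log2 fold change of 0.61 (SE 0.07) with an edgeR adjusted p of 3.00e-05. In the older cohort it rose from 95.2 ± 6.22 (SD, n = 4) to 153 ± 19.8 CPM (SD, n = 3), with a log2 fold change of 0.70 (SE 0.10) and an edgeR adjusted p of 0.00050. Scn7a rose in the young cohort (0.50, SE 0.08, edgeR adjusted p = 0.000567), and Gfap, the intermediate filament of astrocytes and pituicytes, in the older (0.99, SE 0.32, edgeR adjusted p = 0.0461). Six6, a homeobox gene of the developing pituitary and ventral forebrain, fell in both (young -0.46, SE 0.09, and older -0.59, SE 0.10).

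Markers of other cell types moved together with Nkx2-1 and Sox9. The summed level of 8 astrocyte genes was 138 to 166 CPM in WT and 234 to 264 CPM in Zeb1_200M in the young cohort and 94.2 to 109.6 CPM in WT and 173 to 189 CPM in Zeb1_200M in the older, and 3 of 8 tested genes were raised and 0 lowered in the young and 5 of 7 tested genes were raised and 0 lowered in the older. Of the tanycyte genes, 6 of 9 tested genes were raised and 1 lowered in the young cohort and 5 of 10 tested genes were raised and 1 lowered in the older. Over all genes tested, 11.5% were raised in the young and 11.7% in the older. Some genes are on more than 1 list and count in each. Gfap and Slc1a3 are astrocyte and posterior lobe glia genes, Dio2 is a tanycyte and glia gene, and Nes and Vim are tanycyte and stem genes. The summed level of the 7 anterior hormone genes fell instead, at 160100 to 184000 CPM in WT and 65540 to 88040 CPM in Zeb1_200M of young and 286800 to 329900 CPM in WT and 163400 to 208300 CPM in Zeb1_200M of older animals. As single genes, 0 of 7 tested genes were raised and 3 lowered in the young. Their median log2 fold change there was -0.122, so the sum does not stand for every hormone gene. The sum of the fibroblast and pericyte genes was 776 to 894 CPM in WT and 619 to 704 CPM in Zeb1_200M of young and 859.8 to 1217 CPM in WT and 635 to 814 CPM in Zeb1_200M of older animals, although 3 of 7 tested genes were raised and 1 lowered in the young. The oligodendrocyte genes summed to 71.1 to 78.6 CPM in WT and 44.2 to 49.5 CPM in Zeb1_200M of young and 63.1 to 89.5 CPM in WT and 47.9 to 59 CPM in Zeb1_200M of older animals. In the young, only 2 of these 7 genes passed the count filter, and 1 was lowered. In the older cohort, where Sox9 rose, the neuron genes (628 to 721 CPM in WT and 877 to 959 CPM in Zeb1_200M) and the immune cell genes (139.8 to 244 CPM in WT and 259 to 339 CPM in Zeb1_200M) were also higher in Zeb1_200M without overlap, while in the young cohort both overlapped (926 to 999 CPM in WT and 977 to 1152 CPM in Zeb1_200M, and 103 to 118 CPM in WT and 90.2 to 123 CPM in Zeb1_200M). Every gene of the astrocyte, tanycyte, hormone and fibroblast lists had counts in at least 1 pituitary library of each cohort. The part of these shifts in the changes of Nkx2-1 and Sox9 was not tested.

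Transcripts of the intermediate and posterior lobes were compared as well. None of the 3 melanotrope genes was called in the young Zeb1_200M pituitary, and all 3 rose in the older one, where 11.7% of all genes tested were raised: Pax7, the factor that specifies melanotropes, by a log2 fold change of 0.60 (SE 0.14), Pcsk2, a prohormone convertase, by 0.84 (SE 0.18) and Oacyl by 0.79 (SE 0.26) (edgeR's quasi-likelihood test, adjusted p = 0.0115, 0.00566 and 0.0499). Their summed levels overlapped, at 406 to 670.9 CPM in older WT and 545.2 to 1094 CPM in older Zeb1_200M. Oxt, carried in nerve endings of the posterior lobe, stood at 5.52, 2.89, 2.4 and 4.38 CPM in older WT, 0.233, 8.64, 8.12 and 3.82 CPM in older Zeb1_200H and 8.37, 8.78 and 10.0 CPM in older Zeb1_200M, and rose in Zeb1_200M by 1.25 (SE 0.26) on the log2 scale (edgeR adjusted p = 0.00494). In the young cohort Oxt ranged over 0.77 to 1.74 CPM in WT and 0.37 to 1.57 CPM in Zeb1_200M (-0.19, SE 0.43 on the log2 scale, edgeR adjusted p = 0.809). Avp, the vasopressin transcript, was below the count filter in Zeb1_200M against WT in both cohorts. The rise of Sox9 in the older pituitary thus came with raised transcripts of both lobes, and their part in it was not tested. In the young pituitary neither Oxt, at no more than 1.74 CPM in WT and Zeb1_200M, nor a melanotrope gene was called beside Nkx2-1. Other posterior lobe glia genes (4 of 9 tested) and tanycyte genes (6 of 9 tested) were raised there, with 1 lowered in each list, beside 11.5% of all genes raised. Their part in the rise of Nkx2-1 was not tested.

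Of the other stem and folliculostellate genes, 4 of 23 tested genes were raised and 4 lowered in the young Zeb1_200M pituitary and 4 of 22 tested genes were raised and 3 lowered in the older, beside 11.5% and 11.7% of all genes raised and 21.5% and 21.4% called. Cd9, a tetraspanin found on these cells, rose in both cohorts (young 0.53, SE 0.14, and older 0.53, SE 0.09), Slc15a2, a peptide transporter, rose in the young (0.73, SE 0.18) and Cd24a, a surface glycoprotein, in the older (0.79, SE 0.17). The epithelial keratin Krt8 fell in both, from 6.43 ± 0.493 to 1.96 ± 0.388 CPM in the young (-1.70, SE 0.22, edgeR adjusted p = 5.84e-05) and from 22.8 ± 1.35 to 5.96 ± 1.29 CPM in the older cohort (-1.89, SE 0.15, edgeR adjusted p = 5.97e-06). Its partner Krt18 fell in the young (-1.48, SE 0.19), and Nes, an intermediate filament of progenitors and endothelium, in the older (-1.36, SE 0.27). Genes named for 1 cohort were among the 2 of largest change in that direction there, and their values in the other cohort are not given. The median log2 fold change of the list was 0.05 for young and 0.07 for older animals. No stem or folliculostellate marker was called lowered in either cohort.

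In the retinoid pathway, 3 of 12 tested genes were raised and 1 lowered in the young Zeb1_200M pituitary and 1 of 13 tested genes was raised and 1 lowered in the older, beside 21.5% and 21.4% of all genes called and no call for the enzymes Aldh1a1 and Aldh1a2. The retinoid X receptor genes Rxra (young 0.53, SE 0.09, and older 0.41, SE 0.12) and, in the young, Rxrg (0.55, SE 0.10) rose, and the retinoic acid receptor gene Rarg fell (young -0.44, SE 0.11, and older -0.36, SE 0.12). Among 8 relatives of the marker factors (Sox1, Sox3, Sox8, Sox10, Sox21, Lhx9, Nkx2-2 and Nkx2-4), 2 passed the count filter in the young and 1 in the older Zeb1_200M pituitary, and none was called.

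In the hypothalamus, where most of the markers were more abundant than in the pituitary, none was called in any comparison. In the young cohort 7 markers were tested. In Zeb1_200M against WT 0 had an unadjusted p under 0.05 and 0 were called by DESeq2, against 0.02% of all genes called by edgeR. With Zeb1_200H against WT 1 had an unadjusted p under 0.05, Sox2, and 0 by DESeq2, against 0.0202% of all genes, and between Zeb1_200M and Zeb1_200H 1 did, Aldh1a1, and 0 by DESeq2, against 0%. In the older cohort 8 were tested. In Zeb1_200M against WT 2 had an unadjusted p under 0.05, S100b and Aldh1a1, and 0 were called by DESeq2, against 0.00622% of all genes. With Zeb1_200H against WT 0 did, and between Zeb1_200M and Zeb1_200H 1 did, S100b, with 0 called by DESeq2 in both and 0% and 0% of all genes called by edgeR.

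Nkx2-1 ranged over 34.8 to 46.1 CPM in young WT and 33 to 56.1 CPM in young Zeb1_200M (0.17, SE 0.14 on the log2 scale), and over 32.9 to 42.4 and 29.8 to 46.9 CPM in the older cohort (-0.10, SE 0.16). Lhx2 ranged over 5.61 to 8.41 and 5.03 to 10.8 CPM in the young (-0.03, SE 0.27) and 7.99 to 9.12 and 7.67 to 9.99 CPM in the older cohort (0.02, SE 0.15). Sox2, which neural progenitors and astrocytes share with the pituitary stem cells, ranged over 47.2 to 61 CPM in young WT and 42.3 to 54.1 CPM in young Zeb1_200M (-0.14, SE 0.11) and over 48.6 to 60.0 and 45.9 to 52.6 CPM in the older cohort (-0.08, SE 0.10). For Sox9 the ranges were 72.8 to 86.1 and 72 to 88 CPM in the young (0.04, SE 0.09) and 32 to 38.9 and 28.1 to 36 CPM in the older cohort (-0.17, SE 0.11). Rax, the tanycyte factor, was below the count filter in the young hypothalamus. It stood at 0.788, 0.527, 0.764 and 0.855 CPM in WT, 0.269, 1.0, 0.905 and 1.74 CPM in Zeb1_200H and 3.04, 2.52, 1.16 and 2.62 CPM in Zeb1_200M, and all 4 libraries of Zeb1_200M lay above WT. These values rest on raw counts of 2 to 4 in WT and 4 to 14 in Zeb1_200M. In the older hypothalamus Rax overlapped (0.908 to 3.12 CPM in WT and 1.87 to 3.97 CPM in Zeb1_200M, 0.31 (SE 0.38), edgeR adjusted p = 0.712).

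S100b, here a gene of astrocytes, stood at 37.1, 39, 35.9 and 34.4 CPM in young WT, 39.2, 34.4, 46.5 and 34 CPM in young Zeb1_200H and 32.6, 33.7, 32.2 and 32.5 CPM in young Zeb1_200M. The Zeb1_200M libraries lay below all others in the young cohort, yet their difference from WT was -0.16 (SE 0.11) on the log2 scale with an edgeR adjusted p of 0.88. In the older cohort S100b stood at 189, 148, 154 and 143 CPM in WT, 188, 179, 144 and 125 CPM in Zeb1_200H and 210.1, 177 and 209.8 CPM in Zeb1_200M, and the sign was the opposite, with a log2 fold change of 0.34 (SE 0.10) and an edgeR adjusted p of 0.145. Without WT replicate 1, the highest WT library, it was 0.42 with an adjusted p of 0.0451. Aldh1a1 stood at 89.5, 56, 49.9 and 52.9 CPM in older WT, 118, 66.1, 51.3 and 65.3 CPM in older Zeb1_200H and 157, 76.3 and 77.2 CPM in older Zeb1_200M, with replicate 1 the highest in each group. Its log2 fold change in older Zeb1_200M was 0.74 (SE 0.25) with an edgeR adjusted p of 0.167.

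Aldh1a2 varied widely between libraries in the hypothalamus of the young mutants and of all 3 older groups, and little in young WT. It stood at 26, 22.4, 25.2 and 26.7 CPM in young WT, 22.1, 24.9, 3.32 and 38.6 CPM in young Zeb1_200H and 47.2, 27.9, 6.1 and 25.8 CPM in young Zeb1_200M. Replicate 3 was the lowest library in both mutant groups, and Zeb1_200M replicate 1 was the highest of all. Older WT libraries stood at 22.2, 3.36, 9.94 and 9.66 CPM, older Zeb1_200H at 25.8, 24.4, 11.5 and 7.05 CPM and older Zeb1_200M at 23.4, 10.2 and 20.1 CPM. The fibroblast gene Dcn, which encodes the matrix proteoglycan decorin, stood at 21.1 CPM in young Zeb1_200H replicate 3, 18.6 CPM in Zeb1_200M replicate 3 and 61 CPM in Zeb1_200M replicate 1, against 13.5 to 31.4 CPM in WT. Summed, the 7 fibroblast and pericyte genes ranged over 276 to 319 CPM in young WT, 244 to 336 CPM in Zeb1_200H and 297 to 365 CPM in Zeb1_200M, and their part in the spread of Aldh1a2 was not tested. Dcn lay within the range of WT in the libraries with the least Aldh1a2, and above that range in the library with the most.

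In the young ovary both retinaldehyde dehydrogenases fell in Zeb1_200M. Of 5 markers tested, 2 were called in Zeb1_200M against WT and both were lowered, where 2.58% of all genes tested were called and 1.7% lowered. Aldh1a2 stood at 119, 89.7, 101 and 94.4 CPM in WT, 53.1, 77, 61.2 and 47.3 CPM in Zeb1_200H and 34.9, 69.5, 34.6 and 40.0 CPM in Zeb1_200M. Every WT library lay above every mutant library. On the log2 scale the difference from WT was -1.15 (SE 0.17) in Zeb1_200M (adjusted p = 0.00549, edgeR's quasi-likelihood test) and -0.71 (SE 0.13) in Zeb1_200H (adjusted p = 0.215). In Zeb1_200H against WT none of 5 was called by edgeR (2 unadjusted, Aldh1a2 and Aldh1a1), against 0.0051% of all genes, and DESeq2 called 1, Aldh1a2 (adjusted p = 0.000396). Between Zeb1_200M and Zeb1_200H none of 5 was called (0 unadjusted and 0 by DESeq2), against 0% of all genes, and the log2 fold change of Aldh1a2 was -0.44 (SE 0.20).

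Aldh1a1, far more abundant in the ovary, stood at 1264, 973, 1323 and 1280 CPM in WT, 1078, 1057, 823 and 645 CPM in Zeb1_200H and 924, 1067, 717 and 804 CPM in Zeb1_200M. WT replicate 2 lay inside the mutant range and the other WT libraries above it. On the log2 scale the difference from WT was -0.45 (SE 0.10) in Zeb1_200M (adjusted p = 0.0357, edgeR's quasi-likelihood test) and -0.39 (SE 0.12) in Zeb1_200H (adjusted p = 0.498). The Zeb1_200M call was lost when any 1 of WT replicates 1, 3 and 4 or of Zeb1_200M replicates 1, 3 and 4 was left out (adjusted p = 0.0815 to 0.124 in the edgeR fit), and kept without WT replicate 2 or Zeb1_200M replicate 2. With all 3 genotypes in 1 fit it was lost as well (adjusted p = 0.14). Among the other retinoid genes, 1 of 13 tested genes was raised and 1 lowered: Aldh1a3, the third enzyme of the family, rose (0.67, SE 0.13), and Cyp26b1, which breaks retinoic acid down, fell (-1.04, SE 0.15). On the list of ovarian surface epithelium and mesothelium, 0 of 6 tested genes were raised and 2 lowered, Upk1b (-1.18, SE 0.14) and Lrrn4 (-0.77, SE 0.15), and the summed list ranged over 209.6 to 263 CPM in WT and 183 to 216 CPM in Zeb1_200M. The sum of the 4 genes on the theca list (Cyp17a1, Cyp11a1, Star and Insl3) ranged over 1257 to 1549 CPM in WT and 674 to 1163 CPM in Zeb1_200M without overlap (0 of 4 tested genes were raised and 1 lowered), and that of the fibroblast and pericyte genes over 3093 to 3955 and 2338 to 3306 CPM with overlap (0 of 7 tested genes were raised and 0 lowered). The paper placed Star and Cyp11a1 among the steroidogenic or corpus luteum genes lowered most in the Zeb1_200M ovary, where it found few corpora lutea. These retinoid and surface genes outside the markers were named after their values were seen. The part of the surface epithelium, theca list and fibroblast genes, or of corpora lutea, in the fall of Aldh1a2 and Aldh1a1 was not tested.

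The remaining markers were near the limit of detection in the young ovary or did not pass the test. Sox9 ranged over 16.2 to 20.4 CPM in WT and 8.62 to 21.5 CPM in Zeb1_200M (-0.26, SE 0.21, edgeR adjusted p = 0.618). Lhx2 ranged over 0.364 to 2.48 CPM, S100b over 0 to 1.71 CPM, Rax over 0.243 to 2.42 CPM, Nkx2-1 over 0 to 1.21 CPM and Sox2 over 0 to 1.21 CPM across the 12 libraries, and the last 3 were below the count filter.

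In the older ovary no marker was called by edgeR. Of 4 markers tested, 1 had an unadjusted p under 0.05 in Zeb1_200M against WT, Aldh1a2, which DESeq2 called (adjusted p = 0.0103), against 2.71% of all genes called by edgeR. In Zeb1_200H against WT and in Zeb1_200M against Zeb1_200H none was called (0 unadjusted and 0 by DESeq2 in both), against 0% and 1.61% of all genes. Aldh1a2 stood at 97.5, 99.1, 98.1 and 174 CPM in WT, 82.3, 116, 77.8 and 64.3 CPM in Zeb1_200H and 77.3, 33.8, 52.9 and 65.6 CPM in Zeb1_200M. As in the young ovary, the Zeb1_200M libraries all lay below WT, and Zeb1_200H overlapped both. On the log2 scale the difference from WT was -1.01 (SE 0.28) in Zeb1_200M (adjusted p = 0.0988, edgeR's quasi-likelihood test) and -0.44 (SE 0.23) in Zeb1_200H (adjusted p = 0.751). Aldh1a1 ranged over 3003 to 3324 CPM in WT, 2013 to 3417 CPM in Zeb1_200H and 1722 to 4135 CPM in Zeb1_200M, with a log2 fold change of 0.01 (SE 0.25) in Zeb1_200M. The genes of the theca list, Star and Cyp11a1 among them, summed to 5382 to 18170 CPM in older WT and 1663 to 5448 CPM in older Zeb1_200M, and their part in the values of Aldh1a2 was not tested.

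Sox9 and S100b in the older ovary were high in single libraries of each genotype. Sox9 stood at 11.4, 5.37, 5.75 and 6.32 CPM in WT, 2.21, 3.87, 6.56 and 27 CPM in Zeb1_200H and 4.26, 3.24, 43.9 and 6.14 CPM in Zeb1_200M. S100b stood at 5.25, 1.28, 1.0 and 1.64 CPM in WT, 1.2, 4.63, 2.94 and 28.8 CPM in Zeb1_200H and 0.328, 0.479, 18.5 and 0.455 CPM in Zeb1_200M. The high values of both genes fell in Zeb1_200H replicate 4, Zeb1_200M replicate 3 and, to a lesser degree, WT replicate 1. Foxj1, the regulator of motile cilia, stood at 148, 312 and 80.9 CPM in those 3 libraries, at 52.2 CPM in Zeb1_200H replicate 3 and at no more than 6.82 CPM in the other 8. The part of cells with Foxj1 in the spread of Sox9 and S100b was not tested. In Zeb1_200M against Zeb1_200H, the log2 fold change of S100b was -0.95 with all libraries and -2.75 without Zeb1_200H replicate 4 and Zeb1_200M replicate 3 (edgeR adjusted p = 0.866 and 0.0692). That of Sox9 was 0.51 and 0.11 (edgeR adjusted p = 0.908 and 0.944). Against WT, Zeb1_200M had a log2 fold change of Sox9 of 0.98 with and -0.64 without its replicate 3, and Zeb1_200H one of S100b of 2.07 with and 0.36 without its replicate 4. Sox2 was at 0 counts in 4 of the 12 older ovary libraries and at most 0.175 CPM in the others, and Lhx2 ranged over 0.0832 to 0.35 CPM.

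**Figure D4:**
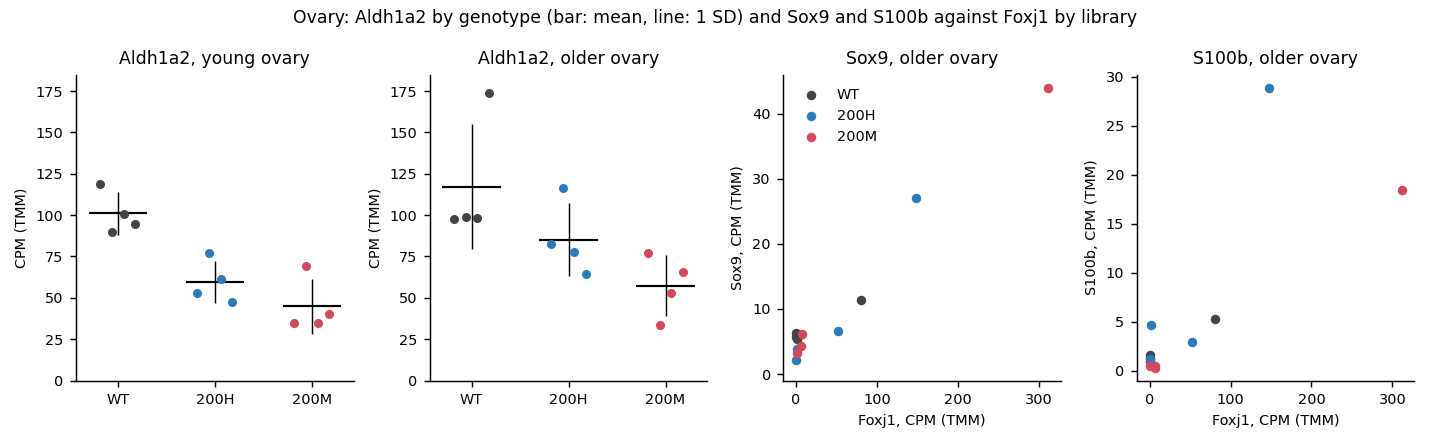
Left pair, CPM of Aldh1a2 in each young and older ovary library by genotype, with the mean (bar) and 1 SD (line). Right pair, CPM of Sox9 and S100b against CPM of Foxj1 in each older ovary library. Aldh1a2 lies lower in all Zeb1_200M libraries than in any WT library of its cohort, and the 2 libraries with most Foxj1 have the most Sox9 and S100b.

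Differences of the Zeb1_200M effect between tissues were tested directly with an interaction term in edgeR. The tissues may come from the same mice, and the labels do not tie libraries of different tissues to animals, so the fits took all libraries as independent. Between the young pituitary and the young ovary, the effect on Aldh1a2 differed by 1.04 (SE 0.24) on the log2 scale (adjusted p = 0.0066), with 10.1% of all genes called. The gene fell in the ovary and had a log2 fold change of -0.11 in the pituitary. In the older cohort, where the ovary was counted with another tool and annotation than the pituitary, the difference was 1.09 (SE 0.36). It was not called (edgeR adjusted p = 0.0939, 5.77% of all genes called). Between the older pituitary and the older hypothalamus, the effect on Sox9 differed by 0.84 (SE 0.19) (edgeR adjusted p = 0.00569), with 17.5% of all genes called and a log2 fold change of -0.17 in the hypothalamus. For Nkx2-1, the difference between the young pituitary and the young hypothalamus was 0.50 (SE 0.24) (edgeR adjusted p = 0.206, 10.5% of all genes called). So the rise of Nkx2-1 in the young pituitary was not shown to differ from its change in the hypothalamus. Between the older and the young pituitary, the effect differed by 0.56 (SE 0.21) for Sox9 (edgeR adjusted p = 0.599) and -0.26 (SE 0.32) for Nkx2-1 (edgeR adjusted p = 0.925), with 0.0273% of all genes called, so neither call was shown to be particular to a cohort. No other interaction of a marker was called. Each interaction shares its pituitary libraries with the others of its cohort.

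**Figure D5:**
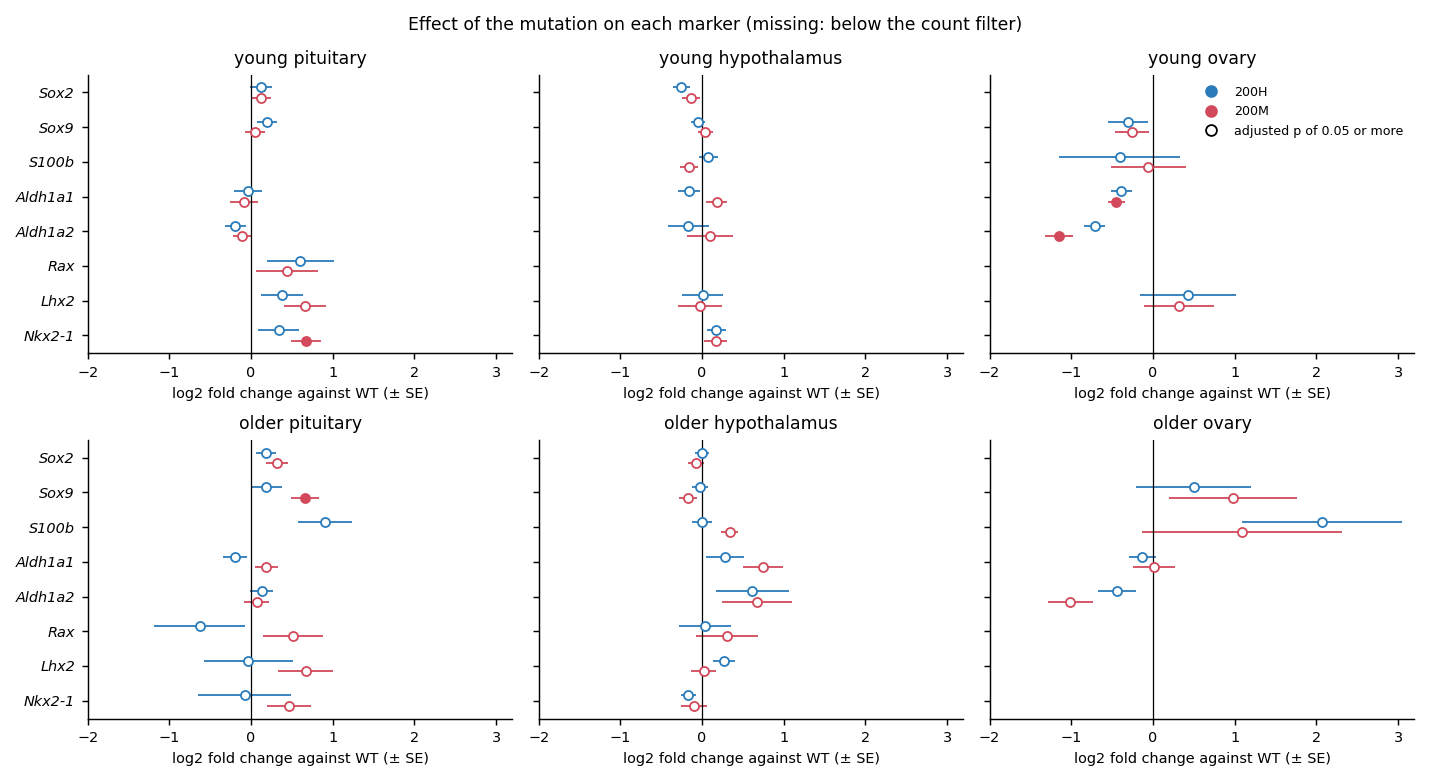
Log2 fold change of each marker gene against WT (point) with its standard error (line) for Zeb1_200H and Zeb1_200M in each tissue and cohort, filled where the adjusted p of edgeR's quasi-likelihood test was under 0.05 and missing where the gene was below the count filter. Filled points are Nkx2-1 in the young pituitary, Sox9 in the older pituitary, and Aldh1a1 and Aldh1a2 in the young ovary, all in Zeb1_200M.

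Over the 18 comparisons, 116 tests of a marker passed the filter on low counts and 28 did not. Of the 116, 2 were called raised, both in the Zeb1_200M pituitary, and 2 lowered, both in the young Zeb1_200M ovary. Over all genes tested, 11.5% were raised in the young and 11.7% in the older Zeb1_200M pituitary, close to the share of the markers. In the young Zeb1_200M ovary 1.7% of all genes were lowered. No marker was called in Zeb1_200H against WT or between Zeb1_200M and Zeb1_200H by edgeR.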

How the data were processed

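Libraries were aligned by the authors to mm10 (GRCm38) with STAR 2.7.1a. Per the methods, older pituitary and hypothalamus reads were assigned with htseq-count (HTSeq 0.9.1) without strand to Ensembl genes, and older ovary (without strand) and all young reads (reverse strand) with featureCounts to GENCODE genes. The authors deposited 18 tables, 1 per pair of genotypes, with the raw read counts per gene that were used here, together with DESeq2 results (versions 1.18 and 1.38.3), which were not used. Counts of 66 libraries that occur in several tables were the same in each, and 3 columns of per-sample values with a repeated header were not used. Replicates were compared in 99 pairs and none agreed within sampling noise (chi-square per degree of freedom 1.886 or more). Gene IDs were given symbols by the ID and symbol columns of a deposited table.

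Each pair of genotypes was fitted alone in R 4.3.3 with edgeR 4.0.16 (TMM, filterByExpr, glmQLFit, glmQLFTest, Benjamini-Hochberg over all genes tested, called at an adjusted p under 0.05). Interactions used the same settings. The scripts were tested on simulated data. Named genes were the 8 markers, the called genes of largest change in fixed lists (up to 2 in each direction), the transcripts of the intermediate and posterior lobe, Zeb1, and the 3 genes most like each marker by Pearson r (mean of at least 1 CPM, prior of 0.5). Dcn and Foxj1, single genes of the fibroblast and ependymal lists, were named outside these rules. The markers and the lists were chosen with earlier results of these data known. Alternatives were DESeq2 1.42.0, RLE factors, totals without 7 hormone genes, no count filter, a fit of all 3 genotypes, a replicate block, genes common to all tables, and, for comparisons with WT, leaving out each library in turn. Interactions had DESeq2 and RLE factors as alternatives. Leaving out older pituitary Zeb1_200H replicate 1 in the comparison of both mutants and in the correlations, and older ovary Zeb1_200H replicate 4 with Zeb1_200M replicate 3, was chosen after seeing the data. Same-numbered libraries did not deviate together (0 of 18 comparisons had every correlation over 0.1). Intervals for zero counts cover counting error only.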

Additional observations from a re-analysis of the deposited data

Results flagged for a closer look

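Each marker in each group of 4 libraries with a mean of at least 10 counts was checked for a library far from its group, where the gap to the nearest library over the whole range exceeded Dixon's 95% critical value. Of 92 such groups, 17 held one, where chance gives about 5%. In the pituitary, older Zeb1_200H replicate 1 was low in Lhx2 (0 CPM against 2.56 to 2.77 CPM in the other 3), and young Zeb1_200M replicate 4 was low in Rax (1.23 CPM against 2.1 to 2.25 CPM in the other 3). Older WT replicate 4 was high in Aldh1a1 (20.1 CPM against 14.8 to 15.4 CPM in the other 3) and low in Aldh1a2 (35 CPM against 49.5 to 50.6 CPM in the other 3), and older WT replicate 3 was high in Sox9 (9.21 CPM against 7.33 to 7.59 CPM in the other 3).

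In the hypothalamus, older WT replicate 1 was high in Aldh1a1 (89.5 CPM against 49.9 to 56 CPM in the other 3), older Zeb1_200H replicate 4 was high in Sox2 (59.3 CPM against 49.8 to 51 CPM in the other 3) and young Zeb1_200H replicate 3, the library with the least Aldh1a2, was high in Sox9 (85.4 CPM against 71.1 to 73.1 CPM in the other 3). In the young ovary, WT replicate 2 was low in Aldh1a1 (973 CPM against 1264 to 1323 CPM in the other 3) and Zeb1_200M replicate 2 high in Aldh1a2 (69.5 CPM against 34.6 to 40.0 CPM in the other 3). In the older ovary, WT replicate 4 was high in both Aldh1a1 (3324 CPM against 3003 to 3042 CPM in the other 3) and Aldh1a2 (174 CPM against 97.5 to 99.1 CPM in the other 3). WT replicate 1 was high in Sox9 (11.4 CPM against 5.37 to 6.32 CPM in the other 3) and S100b (5.25 CPM against 1.0 to 1.64 CPM in the other 3), Zeb1_200M replicate 3 in Sox9 (43.9 CPM against 3.24 to 6.14 CPM in the other 3) and S100b (18.5 CPM against 0.328 to 0.479 CPM in the other 3), and Zeb1_200H replicate 4 in S100b (28.8 CPM against 1.2 to 4.63 CPM in the other 3).

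The effect of Zeb1_200M differed between tissues, by the interaction term, for Aldh1a2 between the young pituitary and the young ovary (a difference of log2 fold changes of 1.04) and for Sox9 between the older pituitary and the older hypothalamus (0.84).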

How the results depend on the processing

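Of 1491 values of single markers recomputed under an alternative, 1468 kept their side of the threshold, 12 lost a call, 11 gained one and no called value reversed. Among the 1468, 76 values that were never called changed sign. Aldh1a2 in the young Zeb1_200M ovary was called under all 15 alternatives (log2 fold change of -1.44 to -1.05), Nkx2-1 in the young Zeb1_200M pituitary under 12 of 14 (0.55 to 0.78, adjusted p of 0.0147 to 0.189), Sox9 in the older Zeb1_200M pituitary under 12 of 14 (0.53 to 0.79, adjusted p of 0.00947 to 0.0925) and Aldh1a1 in the young Zeb1_200M ovary under 7 of 15 (-0.54 to -0.38). Of 230 counts of called markers, 20 moved by over 1.5 times, 10 of them on leaving out 1 library. The count ran from 0 to 1 over the libraries left out for Zeb1_200M in the young pituitary, the older pituitary and the older hypothalamus, and from 1 to 2 in the young ovary. A block by replicate number, which does not pair these libraries, kept only libraries whose number occurs in both groups. For the young Zeb1_200M pituitary that left 2 pairs, without the unmatched WT library. The count under this block was 0 in place of 1 for the young Zeb1_200M pituitary, where Nkx2-1 was no longer called. It was 1 in place of 2 for the young Zeb1_200M ovary, where Aldh1a1 was no longer called, and no other count moved. The loss of Nkx2-1 may thus reflect the fewer libraries as well as the block. All 3 genotypes in 1 fit also gave 1 for the young Zeb1_200M ovary. Without the count filter it was 3 in place of 0 for older hypothalamus Zeb1_200M against WT, 1 for Zeb1_200H against WT and 2 for Zeb1_200M against Zeb1_200H there, where the calls over all genes went from 1 to 1079, from 0 to 97 and from 0 to 1325, and 1 in place of 0 for the young Zeb1_200H ovary. DESeq2 called 1 in place of 0 for the young Zeb1_200H ovary, the older Zeb1_200M ovary and the difference between the older pituitary and ovary. The cause was not tested. At 3321845 counts or more per library, Rax in every tissue, S100b in the pituitary and young ovary, and Sox2, Nkx2-1 and Lhx2 in the ovary still lay near or below the filter.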

Other observations

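The WT levels of some markers differed between the cohorts, which also differ in library chemistry and counting, so the values are given without a test. Sox9 was lower in the older cohort in each tissue, at 24.5 ± 3.71 and 7.33 ± 0.953 CPM of total counts (young and older) in the pituitary, 77.8 ± 4.81 and 35.4 ± 2.98 in the hypothalamus and 17.9 ± 2.34 and 7.14 ± 3.05 in the ovary. S100b was higher in the older cohort in the pituitary (0.335 ± 0.0759 and 0.752 ± 0.219) and the hypothalamus (36.4 ± 2.02 and 157 ± 21.2), and Aldh1a1 was higher in the ovary (1166 ± 127 and 3046 ± 179). Sox2 was nearly level in the hypothalamus (53.1 ± 5.76 and 52.3 ± 5.14), as was Nkx2-1 (39.6 ± 4.24 and 38.5 ± 3.96).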
